A study of Mus musculus with 12 samples.

Results

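The RNA of 7 genes that relay signals from receptors to the nucleus, the Ras genes Hras and Nras, the Raf genes Araf and Braf, the MEK genes Map2k1 and Map2k2 and the ERK gene Mapk3, was followed in full-thickness distal colon of 12 mice. These 7 genes were taken by symbol from the 35240 gene symbols of the deposited table, and 52 of its 113193 transcripts belong to them. Other genes of the same families were read only as a list. In 6 mice, called Spry2IEKO here, both copies of Spry2 are floxed and Cre is made under the Vil1 (villin) promoter, so that Spry2 is deleted in the intestinal epithelium while muscle, stroma and immune cells of the colon wall keep it. The 6 Spry2FF mice carry the same floxed copies without Cre and are littermates. Litters A and B each hold 3 mice of each genotype. Sex was unevenly spread, with 3 males among the Spry2FF mice and 1 among the Spry2IEKO mice. The labels give an age of 6 weeks in one place and 8 weeks in another, the same for all mice.

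Ras proteins are small GTPases that receptor tyrosine kinases switch on at the cell membrane. Active Ras recruits Raf kinases, which phosphorylate the MEK kinases, which in turn phosphorylate the ERK kinases, and active ERK enters the nucleus and turns on transcription. Sprouty2, the product of Spry2, is a feedback inhibitor of this route, which in the colon serves crypt proliferation, repair and survival, and which is controlled mostly by phosphorylation and GTP loading rather than by the amount of RNA.

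Values are transcript abundances that the authors corrected for transcript length and scaled between mice, and are called normalized TPM here. They were summed over the transcripts of a gene. Totals ran from 918816 to 1069158 per mouse. The study gives only an approximate number of reads for all samples, and the values hold none for each mouse, so no counting interval is given. Spry2 itself was between 18.5 and 22.5 in Spry2IEKO mice and between 22.8 and 32.3 in Spry2FF mice, so the groups did not overlap, though the difference did not pass over all genes (log2 difference -0.45, adjusted p = 0.16 by limma). Of 14 lists of cell type markers, those for epithelium, colonocytes, goblet cells and smooth muscle had the highest sums, and 1 striated muscle marker was listed at 0 in all mice. In such bulk tissue, fewer cells of a type and less RNA per cell cannot be told apart.

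All 7 genes were above 0 in every mouse. Mapk3, which encodes ERK1, was the highest at 291 ± 23.9 normalized TPM (mean ± SD, n = 12 mice here and below), above 97.2% of the 15879 genes tested. Map2k1, encoding MEK1, followed at 162 ± 14.3. Araf was at 59.1 ± 4.03 and Map2k2, encoding MEK2, at 58.6 ± 8.52. Hras was at 47.4 ± 3.23, Nras at 30.4 ± 5.20 and Braf at 7.37 ± 0.872. Values are per length, so these levels can be set side by side.

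The order Mapk3, Map2k1, then Araf held in all 12 mice, as did the order Hras, Nras, Braf. Araf and Map2k2 changed places from mouse to mouse, Araf being the higher in 6 of 12, and their mean difference of 0.560 was small beside its SD of 7.40. Map2k2 was above Hras in 11 of 12 mice. Within a stage Hras was 1.60 ± 0.303 times Nras (from 1.11 to 2.17), Araf 8.11 ± 0.967 times Braf (from 6.49 to 9.44) and Map2k1 2.82 ± 0.446 times Map2k2 (from 2.15 to 3.38), and in each pair the same gene was higher in all 12 mice. Relative to its mean, Nras varied most among mice, with a coefficient of variation of 17.1%, followed by Map2k2 at 14.5% and Braf at 11.8%, while Hras and Araf were at 6.81% and 6.82%.

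**Figure D1:**
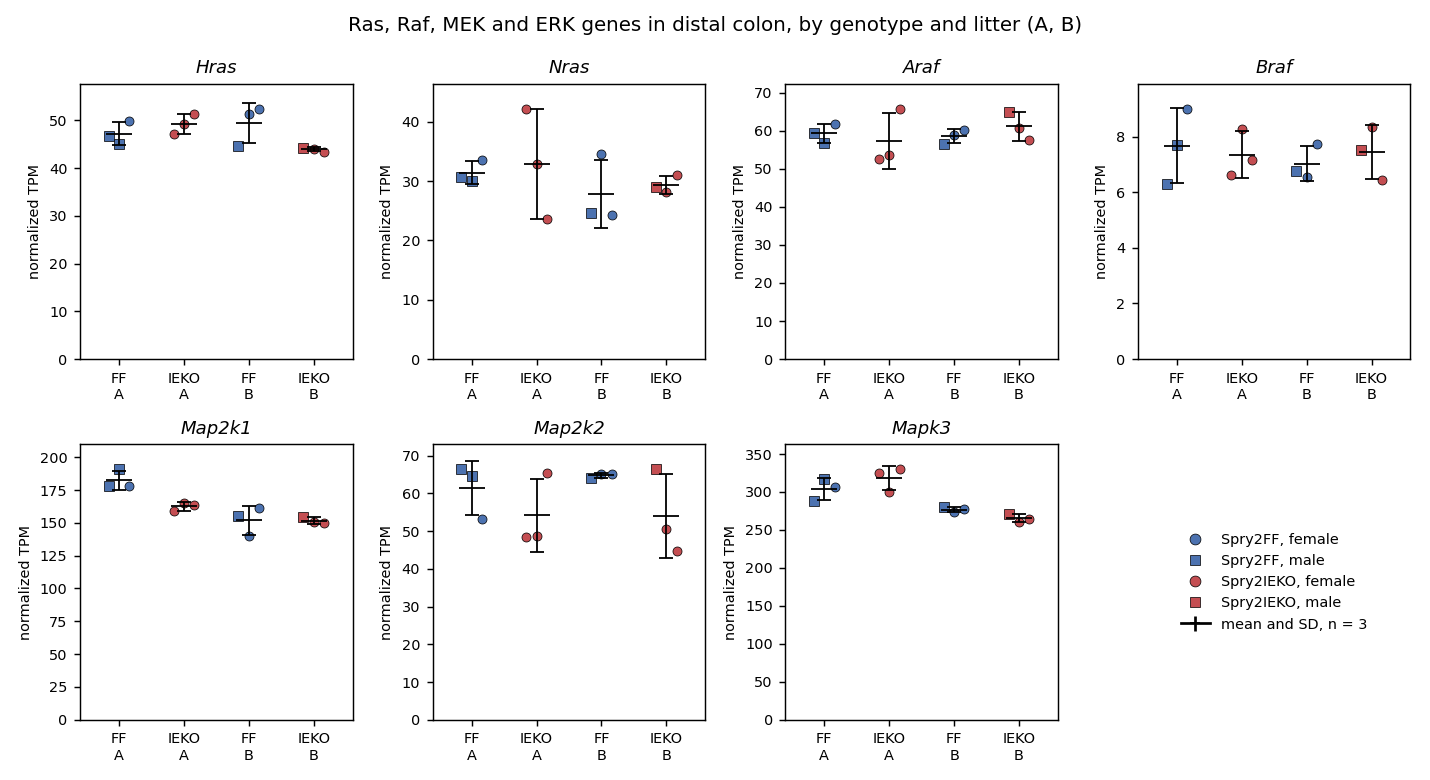
Normalized TPM of the 7 genes (vertical axes from 0) in each mouse, by genotype (FF, Spry2FF in blue; IEKO, Spry2IEKO in red) and litter (A, B); squares are males, and the black marks are the mean and SD of 3 mice. All Mapk3 values of litter B, from 261 to 280.2, lie below all of litter A, from 288 to 329.7, and Map2k2 falls to between 44.8 and 50.6 in 4 Spry2IEKO mice.

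Hras (ENSMUSG00000025499, chromosome 7, 141189105 to 141194005, minus strand, GRCm38) encodes a Ras protein that is attached to the membrane by lipid groups. Its lowest, median and highest values were 44.6, 48.3 and 52.5 in Spry2FF mice and 43.5, 45.7 and 51.3 in Spry2IEKO mice, so the genotypes overlapped. The 3 Spry2IEKO mice of litter B were the 3 lowest of all, at 44.3, 44.0 and 43.5, while those of litter A were at 47.1, 49.2 and 51.3. Of its 7 annotated transcripts, Hras-202, which carries a reading frame of 189 codons, made up 74.5% on average. In all, 80.1% came from transcripts annotated as protein coding.

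Nras (ENSMUSG00000027852, chromosome 3, 103058285 to 103067914, plus strand) encodes the N-Ras protein. Its lowest, median and highest values were 24.4, 30.3 and 34.5 in Spry2FF mice and 23.6, 30.04 and 42.2 in Spry2IEKO mice. The highest and the lowest of the 12 mice were both Spry2IEKO mice of litter A. Among 9 transcripts Nras-201 held 67.9% and Nras-208 14.5%. Both carry the same 189 codons and differ outside them, and together they gave between 71% and 90.7% of the gene.

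Araf (ENSMUSG00000001127, chromosome X, 20797814 to 20860519, plus strand) encodes A-Raf, a Raf kinase with a Ras binding domain near its start and a kinase domain near its end. Its lowest, median and highest values were 56.6, 59.2 and 61.7 in Spry2FF mice and 52.5, 59.2 and 65.9 in Spry2IEKO mice. The medians were alike and the range of the Spry2IEKO mice enclosed that of the Spry2FF mice. Araf was the gene with the most varied transcripts: of 10, only 42.1% of the level came from Araf-201, the full form of 604 codons. The others above 5% were Araf-207, marked for decay, at 10.4%, and Araf-210 and Araf-205, with kept introns, at 9.52% and 7.36%. Araf-203 gave 17.0% and Araf-202 gave 7.68%, and both carry a frame of 186 codons. The 185 codons before the last are those of Araf-201, after which the intron is kept and a TAG stop codon closes the frame. A short A-Raf that keeps the Ras binding domain and lacks the kinase domain is known as DA-Raf, an antagonist of ERK activation. The bases at the point where the forms part, at base 20852028 of chromosome X (GRCm38, plus strand), are shown because they separate the kinase from the short form; lower case marks the shared exon end and capitals the bases that follow it, which are the next exon in Araf-201 and the kept intron in Araf-203.
Araf-201: ccagggtcccagCCCCTTTACCCA
Araf-203: ccagggtcccagGTAGGGATGTCG

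The short forms Araf-202 and Araf-203 together made up 24.7% ± 2.28 of Araf, from 21.2% to 28.6% over the 12 mice. They were at 23.6% ± 2.09 in the 6 Spry2FF mice and 25.8% ± 2.05 in the 6 Spry2IEKO mice, ranges that overlapped. Apart from each other the short forms were less steady. Araf-203 was at 14.3% ± 2.82 in litter A and 19.8% ± 2.83 in litter B, whereas Araf-202 was at 9.54% ± 2.74 and 5.81% ± 2.42, so that their sum was 23.9% and 25.6%. They share their frame, and Araf-203 has in addition a kept intron ahead of it. This summing was chosen after the values were seen.

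**Figure D2:**
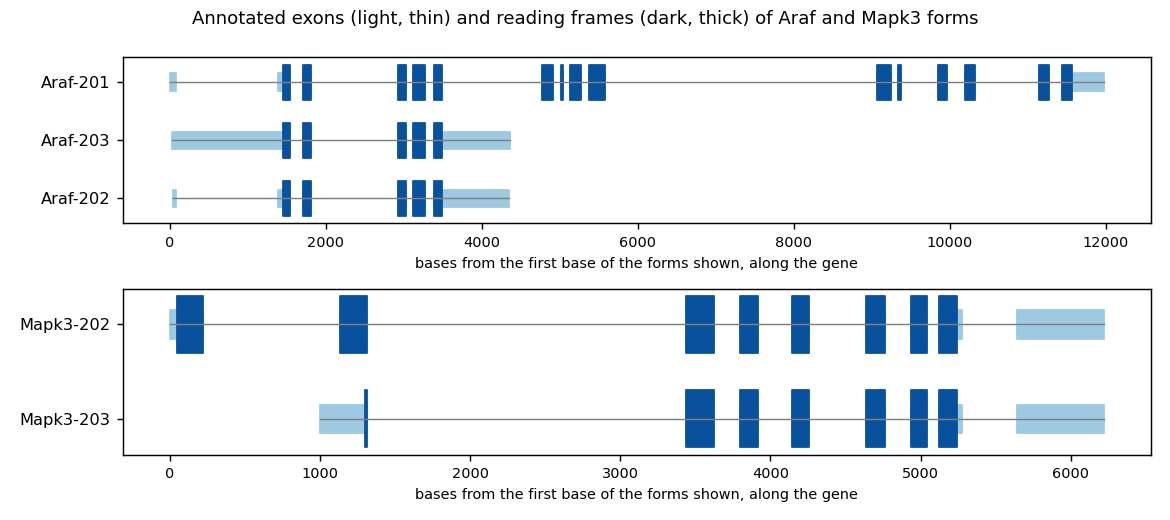
Annotated exons (light) and reading frames (dark) of 3 Araf forms and 2 Mapk3 forms, drawn to scale along the gene in bases from the first base of the forms shown. Araf-203 and Araf-202 end within the kept intron after 186 codons, and Mapk3-203 starts inside the gene and carries the last 265 of the 380 codons of Mapk3-202.

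Braf (ENSMUSG00000002413, chromosome 6, 39603237 to 39725463, minus strand) encodes B-Raf, the Raf kinase with the strongest activity toward MEK. It was the lowest of the 7 genes, with lowest, median and highest values of 6.30, 7.24 and 9.01 in Spry2FF mice and 6.45, 7.36 and 8.36 in Spry2IEKO mice. The genotypes overlapped over most of their range. Braf-201, with 804 codons, gave 76.3% and Braf-202 gave 16.9%. The annotated frame of Braf-202 has 750 codons but opens with CAG and not ATG, so its start is not annotated. The end of Braf overlaps 146 bases of Ndufb2 on the opposite strand, a gene at a mean of 129 normalized TPM; whether strand was used in the quantification is not given in the sources used here.

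Map2k1 (ENSMUSG00000004936, chromosome 9, 64185770 to 64253631, minus strand) encodes MEK1, which phosphorylates ERK on a threonine and a tyrosine. In Spry2FF mice it was at 178, 191 and 178 in litter A and at 155, 139.8 and 161 in litter B. In Spry2IEKO mice it was at 159, 165 and 164 in litter A and at 155, 151 and 149.5 in litter B. The 3 Spry2FF mice of litter A were the 3 highest of all 12, and the genotypes overlapped. It was the gene with the most uniform transcripts, 91.8% coming from Map2k1-201, its only protein coding form, with 393 codons.

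Map2k2 (ENSMUSG00000035027, chromosome 10, 81105915 to 81133975, plus strand) encodes MEK2, a close relative of MEK1 with the same substrates. In Spry2FF mice it was at 66.3, 64.6 and 53.2 in litter A and at 64.0, 65.1 and 65.2 in litter B. In Spry2IEKO mice it was at 48.4, 48.8 and 65.3 in litter A and at 66.3, 50.6 and 44.8 in litter B. In each litter 2 of 3 Spry2IEKO mice were below every Spry2FF mouse, while the third was level with them. All 4 males were between 64.0 and 66.3, and the 8 females between 44.8 and 65.3. Map2k2-202, of 400 codons, made up 61.4% and Map2k2-207, of 401 codons, 19.8%. They part after 306 codons and 1 base of the next, at base 81119703 of chromosome 10 (GRCm38, plus strand), where Map2k2-207 has 3 bases more (capitals), which fall across a codon border and leave the frame open. The junctions are shown because these 3 bases are the whole difference in the frame of the main forms.
Map2k2-202: gccccatcagtggtcatgggatgg
Map2k2-207: gccccatcagtgTAGgtcatgggatgg

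Mapk3 (ENSMUSG00000063065, chromosome 7, 126759601 to 126765819, plus strand) encodes ERK1, the kinase at the end of the route. In litter A it was at 288, 317 and 306 in Spry2FF mice and at 325, 300.5 and 329.7 in Spry2IEKO mice. In litter B it was at 280.2, 273 and 277 in Spry2FF mice and at 271, 261 and 265 in Spry2IEKO mice. The litters did not overlap, and the genotypes did. Most of the level came from the pair Mapk3-202, at 61.4%, and Mapk3-203, at 31.5%. Mapk3-202 codes for the full kinase in 380 codons. Mapk3-203 starts within the first intron of Mapk3-202, reads straight into its second exon, shares 7 exons exactly and carries a frame made of the last 265 codons. The bases that meet the second exon are shown since they tell the forms apart; capitals mark the end of the first exon in Mapk3-202 (up to base 126759818) and the unspliced bases in Mapk3-203 (up to base 126760730 of chromosome 7, GRCm38), and lower case the shared second exon.
Mapk3-202: CGGCATGGTCAGctcagcttatga
Mapk3-203: TGGCCCTCTCAGctcagcttatga

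The estimated balance of these Mapk3 forms differed between mice of the Spry2FF group. Together the 2 forms were steadier, at 92.9% ± 2.71 of Mapk3 over the 12 mice, from 87.4% to 96.5%. They share 7 exons exactly, and how reads were divided between them was not tested. Mapk3-202 made up 79.7%, 56.5% and 72.9% of Mapk3 in the Spry2FF mice of litter A and 59.0%, 57.2% and 71.2% in those of litter B. In Spry2IEKO mice it made up 47.7%, 55.5% and 61.5% in litter A and 60.1%, 58.2% and 57.4% in litter B. Thus 3 Spry2FF mice, at 71.2% and above, stood over all Spry2IEKO mice, and the other 3 lay among them. Mapk3-203 went the opposite way, from 15.6% to 39.3% in Spry2FF mice and from 33.3% to 39.6% in Spry2IEKO mice. Over 25713 transcript shares, the Spry2IEKO minus Spry2FF difference was -9.34 points for Mapk3-202 (95% interval from -18.5 to -0.132, unadjusted p = 0.0473, adjusted p = 1 by limma). For Mapk3-203 it was 7.01 points (95% interval from -1.65 to 15.7, unadjusted p = 0.103, adjusted p = 1 by limma). Neither passed.

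**Figure D3:**
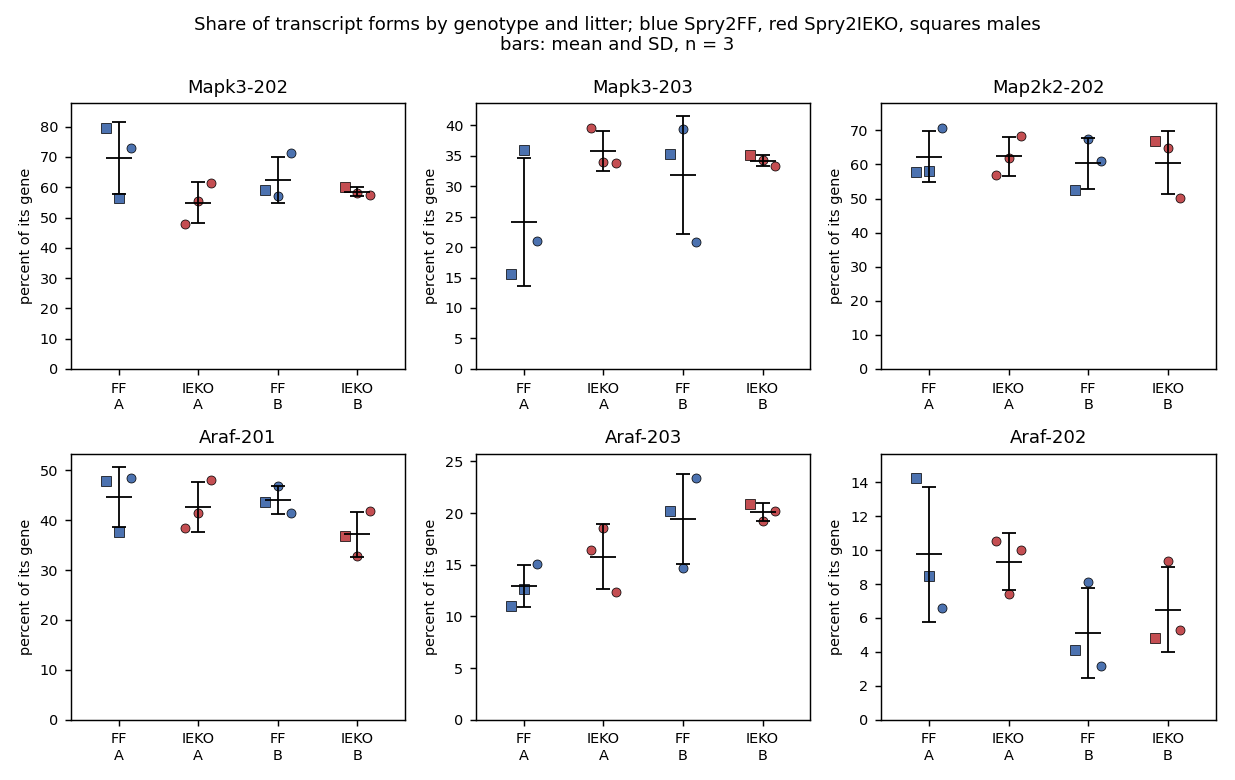
Share of 6 transcript forms in their gene (percent, axes from 0) in each mouse by genotype (blue, Spry2FF; red, Spry2IEKO) and litter; squares are males, and bars the mean and SD of 3 mice. Mapk3-202 spreads from 56.5% to 79.7% in Spry2FF mice, and Araf-203 is higher and Araf-202 lower in litter B than in litter A on average.

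The first comparison asked whether the RNA of the route itself differs when its inhibitor is deleted from the epithelium. By limma on log2(normalized TPM + 0.5), 0 of the 7 genes passed an adjusted p of 0.05 between genotypes, where 5 of all 15879 genes did (0.0315%; 0.0252% higher and 0.0063% lower in Spry2IEKO mice). At an unadjusted p under 0.05 there was 1, Map2k2, beside 6.18% of all genes, and by an exact permutation test of the mice there were 0. No member was free of overlap between genotypes, as was the case for 0.403% of all genes (0.214% lower). The differences, given as Spry2IEKO minus Spry2FF, were small for most: -0.05 for Hras (95% interval from -0.19 to 0.087), 0.0021 for Araf (from -0.14 to 0.14), -0.08 for Map2k1 (from -0.24 to 0.072) and 0.0041 for Mapk3 (from -0.15 to 0.16). The intervals of Nras, at 0.06 (from -0.22 to 0.35), and Braf, at 0.01 (from -0.22 to 0.25), were wider.

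Map2k2 had the largest difference of the 7. The 6 Spry2IEKO mice averaged 54.0 ± 9.32 (SD) and the 6 Spry2FF mice 63.1 ± 4.88. By limma the log2 difference was -0.23 (standard error 0.103, 95% interval from -0.46 to -0.011, adjusted p = 0.794), with an unadjusted p under 0.05. The two-sided exact permutation test over the 924 splits of the mice gave p = 0.0584, and within litters p = 0.075. Litter A alone gave -0.19 and litter B -0.28, while sex as a covariate left -0.17 and females alone gave -0.25. It did not pass in any of these. Beside it, 7 of 8 epithelial markers were lower in the mean in Spry2IEKO mice, with summed levels from 5668 to 7069 against 6902 to 8468. Goblet cell markers were higher in 6 of 6, with sums from 8714 to 16551 against 7122 to 11111. Other lists were also one-sided. Tuft cell, fat, B cell, T cell, myeloid and blood markers were higher in 5 of 5 each. Markers of colonocytes (5 of 6), smooth muscle (6 of 7) and neurons and glia (5 of 6) were mostly lower. Over all genes 47.9% were lower. None of these markers passed the test, and their part in the Map2k2 values was not tested. Both main forms followed the gene: Map2k2-202 was at -0.23 and Map2k2-207 at -0.22 on the log2 scale, with shares that differed by 0.167 and 0.0897 points between genotypes.

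Whether the genotype difference itself differed between litters was tested as an interaction, and 0 of the 7 genes passed (adjusted p = 0.998 for each by limma), as against 2 of all genes (0.0126%). No member had an unadjusted p under 0.05, where 4.19% of all genes did. The nearest was Hras, at 0.06 in litter A and -0.16 in litter B (unadjusted p = 0.0747 by limma). Of the members' transcripts, 45 had a mean of at least 0.5 and 0 of them passed between genotypes, where 1 of 45448 did over all genes (0.0022%). At an unadjusted p under 0.05 there were also 0, beside 4.95% of all. Among the 21 member transcripts that held at least 5% of their gene, 0 changed in share between genotypes, where 0 of 25713 did (0%), and Mapk3-202 alone had an unadjusted p under 0.05, beside 4.37% of all.

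**Figure D4:**
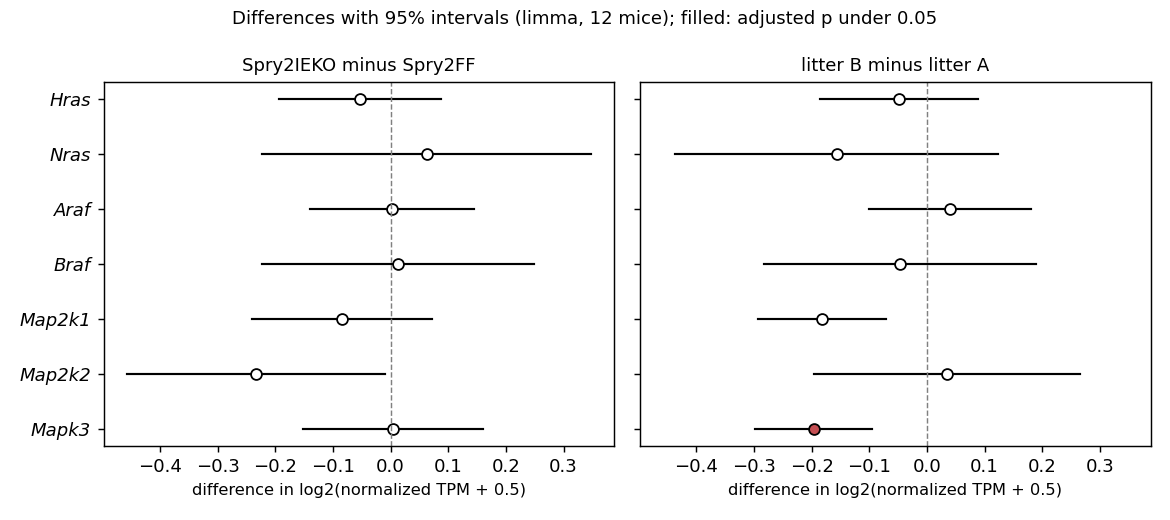
Differences of the 7 genes on the log2(normalized TPM + 0.5) scale with 95% intervals (limma, 12 mice), between genotypes on the left and between litters, with genotype as a covariate, on the right; a filled point has an adjusted p under 0.05. The 7 intervals between genotypes hold 0 except that of Map2k2, and between litters those of Map2k1 and Mapk3 lie below 0.

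The second comparison was between litters, which cannot be told apart from rearing, dissection or library handling that went with a litter. Mapk3 was lower in litter B, the only 1 of the 7 genes that passed, where 4.38% of all genes did (3.31% lower and 1.08% higher in litter B). It was 311 ± 15.9 (SD, n = 6) in litter A and 271 ± 7.27 (SD, n = 6) in litter B, a log2 difference of -0.20 (standard error 0.0464, 95% interval from -0.30 to -0.095, adjusted p = 0.0382 by limma), against a median of -0.05 over all genes. It was also the only 1 of the 7 whose litters did not overlap, as was so for 3.72% of all genes (2.94% lower). Within genotypes the difference was -0.13 in Spry2FF and -0.26 in Spry2IEKO mice. The direction held with any 1 mouse left out, at -0.22 to -0.18, but the adjusted p then ran from 0.0417 to 0.080 and stayed under 0.05 only without Spry2FF replicate 2 or Spry2IEKO replicate 8. In females alone it was -0.23 (adjusted p = 0.12 by limma).

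Map2k1, the kinase just above ERK, was at 172 ± 11.96 in litter A and 152 ± 7.20 in litter B (SD, n = 6), a log2 difference of -0.18 (standard error 0.0512, 95% interval from -0.29 to -0.070, adjusted p = 0.0644 by limma), which did not pass. With the totals of all mice made equal it was -0.26 (adjusted p = 0.0278 by limma), and with protein coding transcripts alone -0.20 (adjusted p = 0.0194 by limma). Its main form alone did pass. Map2k1-201 was at 162, 166, 167, 151, 152 and 156 in litter A and at 141, 133, 142, 139.9, 136 and 139 in litter B, without overlap. Map2k2-208 did not overlap either but was higher in litter B, from 1.75 to 2.66 against 1.13 to 1.56 in litter A. The share of all transcripts without overlap was not computed. Map2k1-201 had a log2 difference of -0.20 (adjusted p = 0.0475 by limma over 45448 transcripts, of which 1.31% passed, 0.739% lower and 0.570% higher). It was the only 1 of the 45 member transcripts to pass, and 8 had an unadjusted p under 0.05, beside 18.3% of all. The adjusted p rose above 0.05, up to 0.0997, when any mouse but Spry2IEKO replicate 8 was left out, with differences from -0.21 to -0.18.

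The other members gave no call between litters. The log2 differences, litter B minus litter A, were -0.05 for Hras, -0.16 for Nras, 0.04 for Araf, -0.05 for Braf and 0.04 for Map2k2, with intervals that all held 0, the widest being that of Nras from -0.44 to 0.12. At an unadjusted p under 0.05 there were 2 members, Map2k1 and Mapk3, beside 21.9% of all genes. In share, 0 of the 21 member transcripts passed between litters, where 0.883% of all did (0.373% higher and 0.509% lower). Araf-203 was the only 1 with an unadjusted p under 0.05, beside 18.3% of all, at 5.41 points more in litter B (95% interval from 1.45 to 9.37, unadjusted p = 0.0119, adjusted p = 0.154 by limma). Fibroblast markers moved with litter: 6 of 6 were lower in litter B, 4 of them past the test (the collagens Col1a1, Col1a2 and Col3a1, and Pdgfra), and their sums ran from 258 to 433 in litter B and from 455 to 749 in litter A. Of myeloid markers, 5 of 5 were lower in litter B in the mean and 1, Cd68, passed (log2 difference -0.87, adjusted p = 0.0257 by limma), with sums from 54.9 to 307.5 in litter B and from 103 to 548 in litter A. Among epithelial markers, 6 of 8 were higher in litter B and 1, Cdh1, was lower and passed. Their part in the Mapk3 and Map2k1 values was not tested.

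Other genes of the route, in 7 lists with 111 genes of which 106 were tested, were read beside the members. Between genotypes 1 of the 106 rose and 0 fell, and 9 had an unadjusted p under 0.05; over all genes, 0.0252% rose, 0.0063% fell and 6.18% had such a p. The gene that rose was Etv4, an ETS transcription factor made in response to ERK, in the list of feedback genes, at 23.8 ± 1.88 in Spry2IEKO and 12.1 ± 3.43 in Spry2FF mice (log2 difference 0.98, adjusted p = 0.043 by limma). The direction held in every alternative and with any mouse left out, at 0.913 to 1.098 on the log2 scale, but the call was lost in 10 of the 13 alternatives (adjusted p up to 0.939 by limma, in litter B alone) and whenever 1 mouse was left out, except Spry2FF replicate 10 (adjusted p from 0.0037 to 0.175 by limma). Of the 14 tested genes of that list, 10 were higher in the mean and 4 lower, with a median of 0.20 against 0.01 over all genes. Spry2 is in this list, and the list was chosen with results of these mice known, so its direction is no independent evidence. In the other 6 lists 0 genes passed: 20 of receptors, adaptors and exchange factors upstream of Ras, 10 of Ras GTPase activating proteins, 12 of other Ras, Raf, MEK and ERK genes, 11 of enzymes that process and move Ras, 23 of scaffolds and modulators, and 16 of kinases and factors downstream of ERK. Their medians lay between -0.02 and 0.04. Among the largest rises and falls of these lists, Rasa4, a GTPase activating protein, was at 32.1 ± 3.57 in Spry2IEKO and 24.4 ± 2.37 in Spry2FF mice without overlap (log2 difference 0.39, adjusted p = 0.322 by limma), and Lypla2, which removes palmitate from proteins, was at 51.2 ± 4.69 and 62.7 ± 3.61 (log2 difference -0.29, adjusted p = 0.331 by limma).

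Between litters 6 of the 106 fell in litter B and 0 rose, with 31 at an unadjusted p under 0.05; over all genes, 3.31% fell, 1.08% rose and 21.9% had such a p. All 20 tested genes upstream of Ras were lower in the mean in litter B, with a median of -0.21, where 58.8% of all genes were lower with a median of -0.05, and 3 of them passed: the receptors Egfr, at 7.50 ± 0.681 against 10.99 ± 1.29 (log2 difference -0.52, adjusted p = 0.0112 by limma), and Met, at 18.4 ± 1.27 against 25.3 ± 2.45 (-0.44, adjusted p = 0.0155 by limma), and Ptpn11, a phosphatase that helps receptors to activate Ras, at 26.4 ± 2.71 against 33.8 ± 3.12 (-0.36, adjusted p = 0.0304 by limma). For each of these 3, named because they passed the litter test, the litters did not overlap, as was so for 3.72% of all genes (2.94% lower). The other 3 were scaffolds and modulators: Iqgap1, which binds MEK and ERK, at 95.1 ± 7.68 against 112 ± 4.57, Pea15a, which holds ERK in the cytoplasm, at 22.8 ± 2.81 against 31.2 ± 4.55 and Rasip1, a Ras binding protein of vessels, at 1.82 ± 0.305 against 2.80 ± 0.175; the litters overlapped for Pea15a only. In the other 5 lists 0 genes passed, with medians from -0.18 to -0.06.

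Across the 12 mice Map2k1 and Mapk3 varied together most among the 21 pairs of members (Pearson's r = 0.61, Spearman's rho = 0.71), and both were lower on average in litter B, of which Mapk3 alone passed as a gene. Nras and Araf varied in opposite directions (r = -0.57, rho = -0.49), as did Nras and Map2k2 (r = -0.52, rho = -0.48). Spry2IEKO replicate 4 was the highest mouse for Nras (42.2) and the lowest for Araf (52.5), with Map2k2 at 48.4. Spry2IEKO replicate 6 was the lowest for Nras (23.6) and the highest for Araf (65.9), with Map2k2 at 65.3. The r of these pairs without these mice was not computed. For each member, the gene with the most similar pattern among 10702 other genes with a mean of at least 5 was picked by Pearson's r over the 12 mice, a choice that makes r high by itself. These were Sdhc, a subunit of succinate dehydrogenase, for Hras (r = 0.89), Pcgf5, a Polycomb protein, for Nras (0.89), Pheta1 for Araf (0.87), Med23, a Mediator subunit, for Braf (0.90), Spon2 for Map2k1 (0.92), Sppl2b, a membrane protease, for Map2k2 (0.93) and Bscl2 for Mapk3 (0.91). Without the 2 mice farthest from the member's median, r ran from 0.75 for Araf to 0.91 for Map2k1. Values of a mouse share its library and its scaling.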

How the data were processed

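RNA of distal colon from 12 mice was sequenced mouse by mouse; groups, litters and sexes are those of the labels. TPM came from kallisto, run by the authors on the mouse transcriptome, and the deposited signal is TPM scaled once more between mice. The paper gives single-ended reads and the labels paired-end reads from a stranded kit. Columns with results of a test by the authors were not used. Of 113974 entries, 781 repeated a transcript and were dropped; transcripts without a symbol made up at most 0.0632% of a mouse. Values were summed per gene. Positions, exons and sequences are those of GENCODE M21 on GRCm38.

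The plan named TPM; finding a scaled signal did not change the tests. A gene entered when its mean reached 0.5. R 4.3.3 and limma 3.58.1 (linear fit, empirical Bayes moderation with a mean trend, p-values on both sides, adjusted after Benjamini and Hochberg over all genes) were applied to log2(signal + 0.5), which understates changes of low genes. Litters were compared with genotype as a covariate. Transcripts were fitted likewise. Shares were fitted without trend, in percent, for transcripts with a mean share of 5% to 95% of genes with a mean of at least 5. Each mouse is a separate animal. In simulated data with 200 of 15879 genes changed by 1 on the log2 scale, 83.5% were recovered between genotypes and 75.5% between litters. Of the calls, 6.70% and 7.36% were wrong. The simulated genotype comparison held no litter differences, unlike these mice, and changes of genes smaller than 1 were not simulated. Figures were drawn with matplotlib 3.10.9 from tables made with pandas 2.3.3.

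The 7 genes, the gene lists and the 14 marker lists were chosen with earlier results of these data known. Genes named are the 7, of each list those past the threshold and, of the largest rise and fall in each, 2 picked after their values were seen, the most similar gene of each member, Spry2 as the deleted gene and Ndufb2 as an overlapping gene. Alternatives were the pseudocount, the filter, scaling, protein coding transcripts alone, sex and litter terms, single litters, genotypes or females, and leaving out each mouse.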

Additional observations from a re-analysis of the deposited data

Results flagged for a closer look

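In 3 of 56 groups of 6 mice, over the 7 genes and their 21 main transcripts, 1 mouse lay farther from the rest than Dixon's limit allows, and chance alone gives about 1 in 20. Map2k2 was 53.2 in Spry2FF replicate 7, a female of litter A, while the other 5 Spry2FF mice were between 64.0 and 66.3. Without this mouse the genotype difference was -0.28 on the log2 scale (unadjusted p = 0.0183, adjusted p = 0.641 by limma). With any 1 mouse left out, the Map2k2 difference ran from -0.30 to -0.18 (adjusted p from 0.445 to 0.999 by limma). Spry2IEKO replicate 6, also a female of litter A, was the highest of its group for Araf-201, at 31.6 where the other 5 were between 19.9 and 24.0. The same mouse was the highest for Mapk3-202, at 202.6 where the others were between 152 and 167.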

How the results depend on the processing

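No paired analysis was possible because the genotypes share no replicate numbers; litter as a covariate left all genotype calls of the members as they were. No gene of the 7 passed between genotypes under any alternative or with any mouse left out. The sign of the smallest differences was not stable. Hras became 0.058 in litter A alone. Araf became -0.023 with equal totals, -0.047 with protein coding transcripts, -0.058 in females and -0.056 in litter A. Braf became -0.010 with equal totals, -0.030 with quantile normalization, -0.014 with sex as a covariate, -0.067 in females and -0.049 in litter A. Mapk3 became -0.021, -0.030 and -0.059 with equal totals, protein coding transcripts and litter B alone. With 1 mouse left out, Nras ran from -0.029 to 0.14, Araf from -0.029 to 0.036, Braf from -0.026 to 0.070, and Mapk3 from -0.032 to 0.035. Hras ran from -0.081 to -0.029 and Map2k1 from -0.13 to -0.045, each with its sign kept. Map2k1 was -0.17 in litter A alone and -0.0027 in litter B alone.

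Between litters, Hras became 0.063 and Araf -0.018 in Spry2FF mice alone, Araf -0.040 and Map2k2 -0.044 with equal totals and -0.0082 and -0.0078 with protein coding transcripts, Braf 0.065 with quantile normalization and 0.016 in Spry2IEKO mice, and Map2k2 -0.0061 in females and -0.012 in Spry2IEKO mice. With 1 mouse left out, Braf ran from -0.096 to 0.012, Map2k2 from -0.030 to 0.10 and Mapk3 from -0.22 to -0.18. Hras ran from -0.081 to -0.023, Nras from -0.26 to -0.072, Araf from 0.0074 to 0.079 and Map2k1 from -0.20 to -0.15, each with its sign kept. Mapk3 no longer passed with protein coding transcripts (-0.18), in females (-0.23), or in Spry2FF (-0.13) or Spry2IEKO mice (-0.26) alone, and Map2k1 passed with equal totals (-0.26) and protein coding transcripts (-0.20); fewer mice were fitted in the subsets, and otherwise the cause was not tested.

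Genes called between genotypes went from 5 to 3 with a minimum mean of 0.1 or 5, 1 with no filter, 2 with quantile normalization or protein coding transcripts, 1 with sex, 2 in females and 1 in litter A or B, and from 1 to 11 with a mouse left out, the most without Spry2IEKO replicate 8. Between litters 171 higher and 525 lower genes became 105 and 1351 with equal totals (1456), 209 and 268 with quantile normalization, and 119 and 980 with protein coding transcripts (1099); the count was 422 with no filter, 1 in females, 2 in Spry2FF and 1 in Spry2IEKO mice, and 178 to 957 with a mouse left out, the fewest without Spry2IEKO replicate 5. The median over all genes was -0.049, and -0.12 with equal totals. The interaction gave 0 genes with a minimum mean of 5 or protein coding transcripts and 2 to 5 with a mouse left out. Of transcripts, 0 to 4 passed between genotypes and 51 to 737 between litters with a mouse left out. Of shares, 0 to 2 passed between genotypes and 2 to 454 between litters; for transcripts and shares between litters the fewest came without Spry2FF replicate 13 and the most without Spry2IEKO replicate 8, which also gave the most genes. Shares of genes with a mean of at least 1 gave 46 calls between litters, and log2 ratios 8. Alternatives for the interaction, for transcript levels and for Etv4 were chosen after seeing the data. How far the read number of each mouse limits low transcripts cannot be read from these values.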
